A study of Mus musculus with 27 samples.

Results

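The genes described here are 45 genes of the lysosome and of autophagy, chosen by their symbols from the 45070 genes of a chromatin-associated RNA time course in mouse macrophages. Every one of the 45 symbols was found, and all 45 passed the filter on low values (3 or more of the 27 samples with a normalised read count of 10 or higher), as did 13901 genes in all. The choice used the names alone and no measured value, although earlier results of these data were known when it was made. By role they comprise 3 transcription factors, 5 membrane and cholesterol export proteins, 9 proteases, 7 subunits of the vacuolar proton pump (V-ATPase), 9 glycosidases, lipases and saposin or granulin precursors, 9 proteins of autophagy initiation, lipidation and the ATG8 family, and 3 autophagy receptors.

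The cells were bone marrow-derived macrophages (BMDMs), grown from the marrow of male C57/BL6 mice 6 to 8 weeks old. All 27 samples were wild type and shared a first hour (1 h) in DMSO, in which kinase inhibitors given in other samples of the study were dissolved. The cells were then left untreated or received lipopolysaccharide (LPS), a bacterial ligand of the receptor TLR4, or interleukin-4 (IL-4), a cytokine of type 2 immunity, each at 10 ng/ml for 0.5, 1, 2 or 4 h, with 3 replicates in each of the 9 groups. Chromatin-associated RNA, rich in transcripts whose synthesis is not yet finished, was sequenced. The untreated group has 1 time only, so time since the DMSO step and time with a stimulus cannot be told apart, and DMSO was present in every comparison.

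The values are the authors' normalised read counts. They summed to between 2469768 and 2790981 without LPS (untreated or IL-4) and to between 3571492 and 4058199 with LPS. Because these sums follow a scaling on invariant genes, they are not read depths, which normalised values do not give and which were not estimated here. Macrophage markers (8 genes) summed to 10027 to 11141 in the untreated samples, 11122 to 19679 after LPS and 10976 to 14044 after IL-4. Markers of 5 other cell types were low, with sums of at most 7 (B cells), 34 (T cells), 91 (neutrophils and their precursors), 101 (dendritic cells) and 217 (fibroblasts or stromal cells), and with the defining T cell genes Cd3e and Cd3g and the neutrophil gene Ly6g at 0 in all samples. In such bulk samples, fewer cells making a transcript and less of it per cell cannot be told apart. Replicate 1 stood apart from the other replicates in every group, since the spread (SD over the members) of its log2 ratio to replicate 2 was 0.32 to 0.52 against 0.16 to 0.33 between replicates 2 and 3.

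Lysosomes are acidic compartments in which hydrolases degrade material taken up from outside the cell or delivered by autophagy. The V-ATPase pumps protons into them, cathepsins and other hydrolases do the degradation, and membrane proteins such as LAMP1, LAMP2 and the cholesterol exporter NPC1 keep the compartment intact and move its products out. In autophagy the ULK1 kinase and Beclin-1 complexes start a membrane, ATG5, ATG7 and ATG16L1 attach LC3 and GABARAP proteins to it, and receptors such as p62 (Sqstm1), optineurin (Optn) and TAX1BP1 bring in ubiquitin-tagged cargo. The related transcription factors TFEB, TFE3 and MITF bind E-boxes in the promoters of many of these genes. Macrophages use the same machinery to degrade ingested microbes and dying cells.

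The promoters of the members were searched for that E-box because it is the sequence that ties the transcription factors of the set to the other members. The RefSeq promoter windows used (GRCm38.p6, 250 bases before to 50 bases after each start) covered 36 of the 45 members. The core CACGTG, which reads the same on both strands, was present in 13 of the 36 (36.1%), against 8.09% of the 27025 genes with a window. The longer motif TCACGTG, searched on both strands and always containing the core, was present in 11 of the 36 (30.6%), against 4.29% of those genes. For each of these 11 members the site that begins before the start and nearest to it is printed here. Sites are written 5′ to 3′ on the strand of the gene, with 10 bases on each side. The motif is in capitals (on either strand, so that some sites show a further A). Distances are those of the first base of the motif, and the motif of Atp6v0d1 reaches past the start.
Lamp1, chr8:13159135-13159161, plus strand, 16 bases before the start: cgtgaccacaTCACGTGcggaacggag
Mcoln1, chr8:3500463-3500490, plus strand, 46 bases before the start: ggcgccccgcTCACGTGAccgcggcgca
Ctsa, chr2:164833750-164833777, plus strand, 13 bases before the start: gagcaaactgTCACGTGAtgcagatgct
Ctsd, chr7:142387909-142387936, minus strand, 99 bases before the start: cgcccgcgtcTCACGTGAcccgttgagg
Lgmn, chr12:102439126-102439152, minus strand, 50 bases before the start: ggaatgtctgTCACGTGgtccatttta
Atp6v0d1, chr8:105566051-105566078, minus strand, 4 bases before the start: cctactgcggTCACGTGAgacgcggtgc
Atp6v1a, chr16:44139374-44139401, minus strand, 132 bases before the start: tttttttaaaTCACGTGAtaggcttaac
Gaa, chr11:119267812-119267838, plus strand, 141 bases before the start: ttctgtgcgaTCACGTGtttgactctg
Gla, chrX:134601183-134601210, minus strand, 195 bases before the start: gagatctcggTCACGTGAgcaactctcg
Glb1, chr9:114401019-114401045, plus strand, 49 bases before the start: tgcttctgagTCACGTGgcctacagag
Atg7, chr6:114670953-114670979, plus strand, 133 bases before the start: atattggtggTCACGTGtgcagtaagt
Lamp1 held 4 such sites in its window, and Mcoln1, Ctsa and Gla held 2 each. The start is that of the RefSeq window and can differ from the end of the deposited gene span. The printed sites of Ctsa, Lgmn and Atg7 lie inside that span (for Atg7, chr6:114643130-114860600). Tfeb, Tfe3, Mitf and all 3 autophagy receptors were among the 23 members with a window and no core. A match is a description of these letters and no evidence that a factor was bound.

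Levels in untreated BMDMs were compared per length only. Per kilobase of gene span, the highest untreated levels were those of Grn (173 ± 25.9 normalised read counts per kilobase, SD, n = 3), the precursor of granulins, of Psap (88.5 ± 17.9), the precursor of saposins, and of the cathepsins Ctsd (81.8 ± 1.03) and Ctsb (79.9 ± 7.34). Psap and Ctsb did not differ beyond their spread. Per kilobase of cDNA the order changed, with Mitf (1023 ± 230) and Psap (809 ± 163) at the top and Ctsd (509 ± 6.41) and Grn (507 ± 76.0) side by side. Whether the counting took in introns was not stated, so neither scale can be preferred. Of the 45 members, 17 overlap another annotated gene and 5 of these overlap it on the same strand. Strand use in the counting was not stated either, so overlapping genes could share reads.

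LPS changed nearly the whole set, and most members fell. Over the course, 44 of 45 members passed the F test (limma, Benjamini-Hochberg adjusted p below 0.05 over all tested genes) against 87.6% of all tested genes, so the share that changed was near the background. By the time point of largest change, 14 of the 44 were higher (background 32.9%) and 30 were lower (background 54.7%). At 0.5 h 25 members passed (background 53.9%), 14 higher (background 19.6%) and 11 lower (background 34.4%). The fall came later. At 1 h 34 passed (background 63.8%), 9 higher (background 24.8%) and 25 lower (background 39.0%). At 2 h 42 passed (background 65.9%), 12 higher (background 26.9%) and 30 lower (background 39.0%), and at 4 h 40 passed (background 63.5%), 15 higher (background 25.9%) and 25 lower (background 37.6%). The median member changed by 0.00, -0.74, -1.12 and -0.70 (log2) at the 4 times, beside -0.24, -0.30, -0.29 and -0.26 for the median of all tested genes. The split moved with the scaling of the libraries. Over the course it was 20 higher and 23 lower with median-of-ratios factors, where 87.6% of all tested genes were called in either direction. At equal totals it was 7 and 37, beside 90.9% of all tested genes. By time it was 20 higher and 10 lower at 0.5 h with median-of-ratios factors, and 11 and 21 at 0.5 h, then 7 and 33 (2 h) and 11 and 30 (4 h) at equal totals, a scaling that moved the median of all genes to -0.75, -0.89, -0.95 and -0.87.

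**Figure D1:**
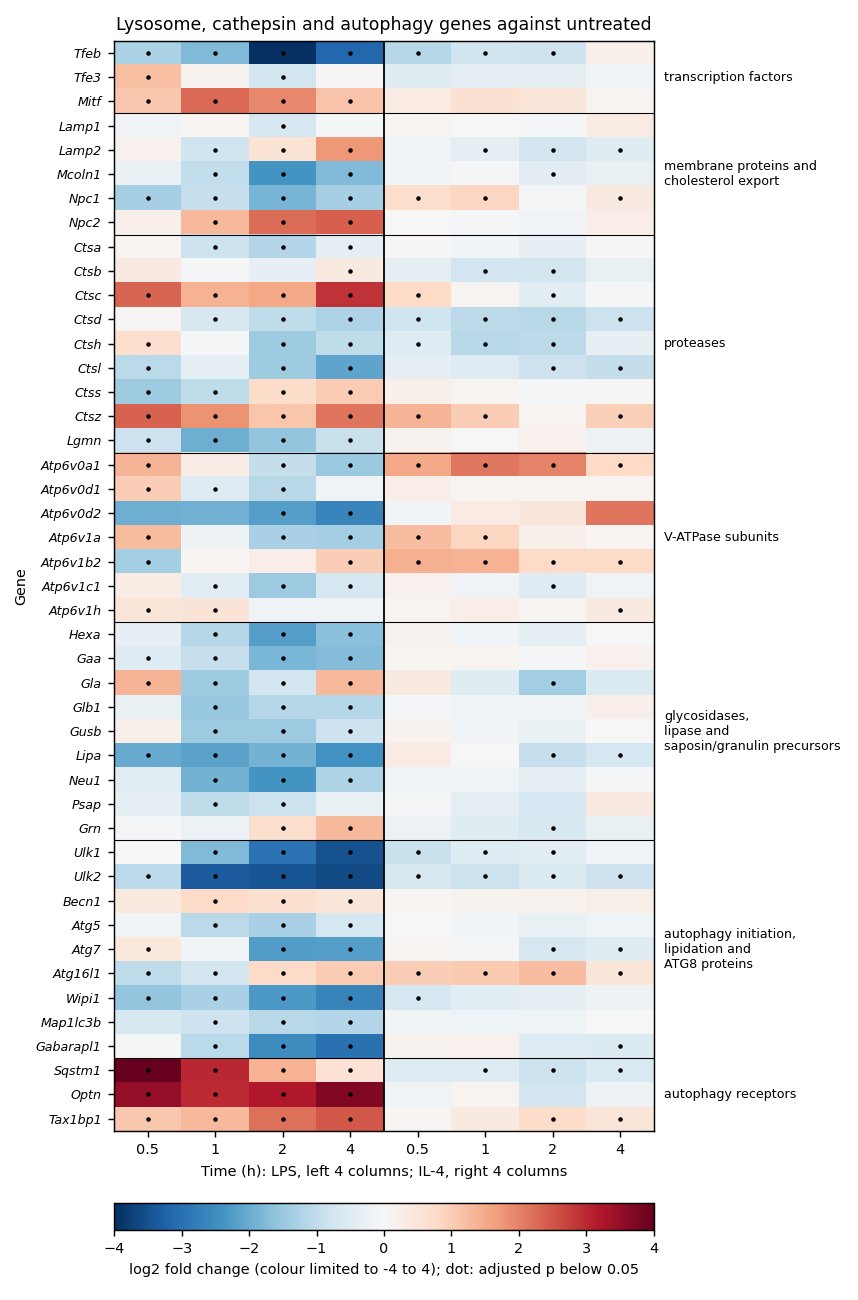
Log2 fold change against untreated (colour) of the 45 members, in rows by role, after LPS (left 4 columns) and IL-4 (right 4 columns), with time in hours on the x axis and a dot where the limma adjusted p was below 0.05 (n = 3 per group). By the deposited scaling autophagy receptors were higher at every LPS time, most hydrolases and autophagy proteins were lower from 1 h, and the IL-4 columns are paler, where the strongest rise that passed was that of Atp6v0a1 (2.11 at 1 h).

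**Figure D2:**
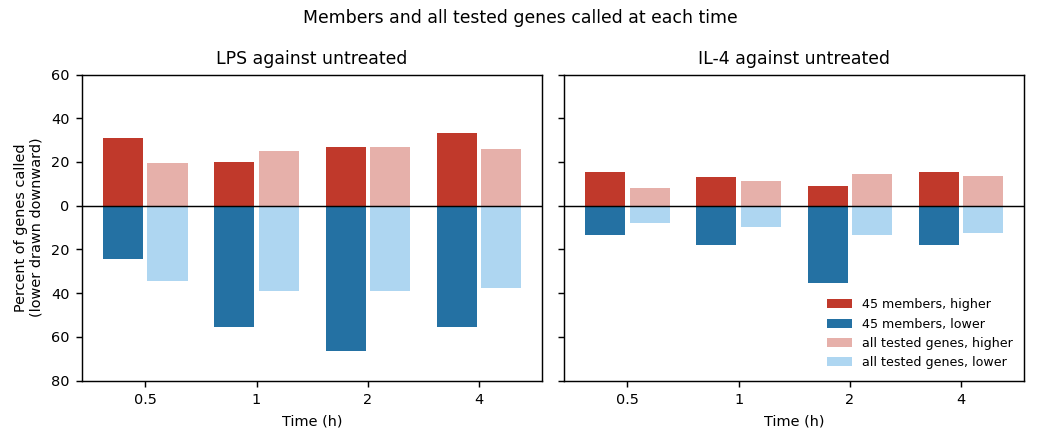
Percent of the 45 members (dark bars) and of all 13901 tested genes (pale bars) called higher (upward) or lower (downward) against untreated at each time in hours. After LPS the members' share called lower was above the share of all tested genes at 1, 2 and 4 h, and below it at 0.5 h.

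Among the transcription factors, Tfeb fell at every LPS time, Mitf rose at every time and Tfe3 rose at 0.5 h and fell at 2 h. Tfeb (GRCm38 chr17:47737037-47792416) stood at 366, 359 and 294 normalised read counts in the untreated replicates 1, 2 and 3, at 190, 113 and 124 after 0.5 h of LPS, at 16, 7 and 11 after 2 h and at 51, 37 and 28 after 4 h. Every LPS sample lay below every untreated sample, and the lowest values of the course were at 2 h. The log2 fold change was -1.28 ± 0.30, adjusted p = 0.00192 at 0.5 h, -4.85 ± 0.30, adjusted p = 1.11e-09 at 2 h and -3.14 ± 0.30, adjusted p = 1.80e-07 at 4 h (± SE throughout). This was the largest change against untreated among the 45 members, a drop by a factor of about 30.0 between the group means.

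Mitf, which governs lysosomal and lineage genes in several cell types, was higher in the same samples. Its values were 6672, 4509 and 4717 untreated, 31690, 23058 and 21868 at 1 h and 14300, 10208 and 10235 at 4 h of LPS. The groups did not overlap, and replicate 1 was the highest in each. The log2 fold change was 2.27 ± 0.22, adjusted p = 3.11e-07 at 1 h and 1.13 ± 0.22, adjusted p = 3.19e-04 at 4 h. Tfe3 moved both ways, from 180, 204 and 220 to 439, 473 and 492 at 0.5 h and down to 107, 130 and 123 at 2 h. It rose at 0.5 h (1.22 ± 0.15, adjusted p = 5.85e-06), fell at 2 h (-0.74 ± 0.15, adjusted p = 3.86e-04) and was at 0.04 ± 0.15 at 4 h, where its samples overlapped the untreated ones. At equal totals it was lower at 1 h (-0.44, adjusted p = 0.0172) and at 4 h (-0.57, adjusted p = 0.00345). Tfe3 shares 3903 bases with the non-coding gene Gm39487 on the other strand, whose mean over all samples was 46.6% of that of Tfe3.

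**Figure D3:**
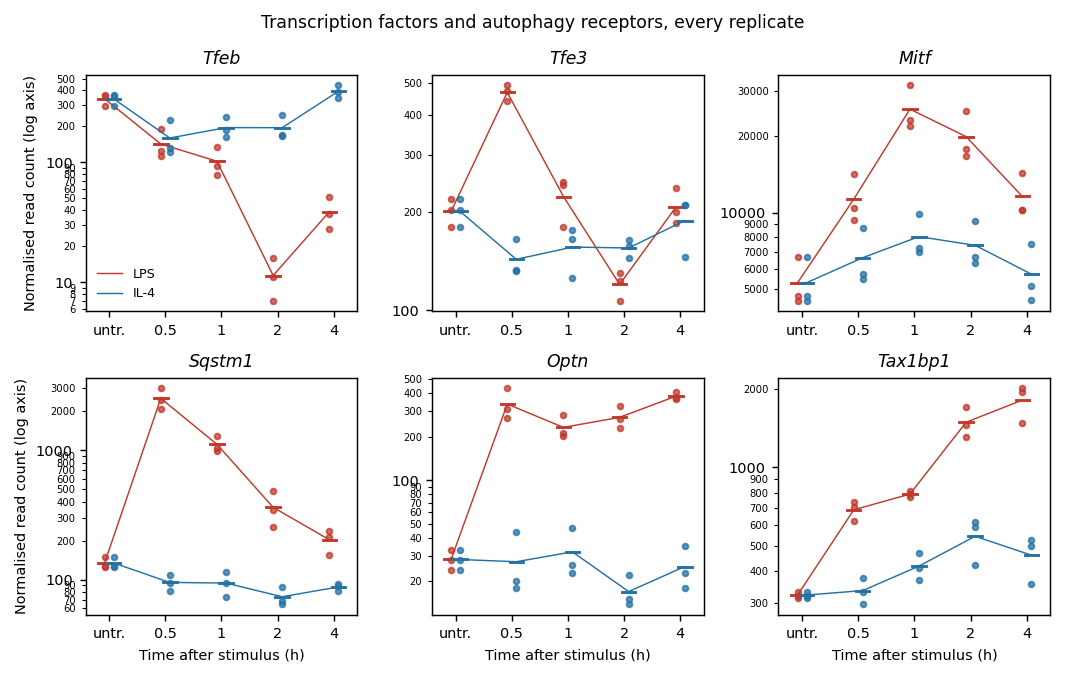
Normalised read counts (log axis) of the transcription factors Tfeb, Tfe3 and Mitf and of the autophagy receptors Sqstm1, Optn and Tax1bp1 in every replicate (points) of the untreated, LPS (red) and IL-4 (blue) groups, with group means as bars joined by lines. Tfeb reaches 7 to 16 at 2 h of LPS while Sqstm1 peaks at 2078 to 2994 at 0.5 h and Tax1bp1 climbs to 1486 to 2010 at 4 h.

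All 3 autophagy receptors rose at every LPS time, each with its own time course. The background called higher was 19.6%, 24.8%, 26.9% and 25.9% at the 4 times. At equal totals 2 of 3 rose at 4 h, where 74.0% of all tested genes were called in either direction. Sqstm1, whose product p62 binds ubiquitin and LC3, went from 128, 126 and 149 untreated to 2994, 2460 and 2078 at 0.5 h. It then declined to 1297, 1042 and 985 at 1 h, 485, 345 and 254 at 2 h and then 215, 239 and 155 at 4 h. The log2 fold change was 4.20 ± 0.22, adjusted p = 4.86e-10 at 0.5 h and 0.57 ± 0.22, adjusted p = 0.0306 at 4 h, the last of which was lost without replicate 2 (adjusted p = 0.33), when replicates 2 and 3 were averaged and when no filter was set on low values, and stood at -0.03 at equal totals. Optn, a receptor for mitochondria and bacteria, went from 33, 24 and 28 to 431, 309 and 269 at 0.5 h and 408, 363 and 372 at 4 h. It held its level, with log2 fold changes of 3.51 ± 0.19, adjusted p = 8.85e-10 at 0.5 h, 2.99 ± 0.19 at 1 h, 3.22 ± 0.19 at 2 h and 3.71 ± 0.19, adjusted p = 1.39e-10 at 4 h. Tax1bp1 climbed instead, from 333, 316 and 320 to 624, 734 and 702 at 0.5 h, 1310, 1452 and 1711 at 2 h and then 1486, 1944 and 2010 at 4 h. Its log2 fold change was 1.08 ± 0.13, adjusted p = 4.36e-06 at 0.5 h and 2.47 ± 0.13, adjusted p = 1.44e-10 at 4 h. No receptor sample after LPS overlapped the untreated samples.

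Of the 9 genes of autophagy initiation, lipidation and the ATG8 family, 7 fell (background 54.7%) and 2 rose (background 32.9%) over the LPS course at their largest change (limma, adjusted p below 0.05). Median-of-ratios factors gave 6 and 2, and equal totals gave 8 and 0 (87.6% and 90.9% of all tested genes called in either direction). The kinase Ulk2 went from 578, 477 and 451 untreated to 294, 183 and 244 at 0.5 h, 46, 66 and 39 at 1 h and then 47, 39 and 37 at 4 h. All LPS samples lay below all untreated samples, with a log2 fold change of -3.58 ± 0.22, adjusted p = 9.79e-10 at 4 h. Its relative Ulk1 was later: it stood at 215, 191 and 166 at 0.5 h against 174, 189 and 206 untreated (0.00 ± 0.30, adjusted p = 0.998), and then fell to 42, 59 and 67 at 1 h and 13, 17 and 18 at 4 h (-3.50 ± 0.30, adjusted p = 5.23e-08). The difference between Ulk1 and Ulk2 in timing was not tested. Atg7, the E1-like enzyme of lipidation, held until 1 h (919, 939 and 841 against 898, 985 and 1042) and dropped to 198, 201 and 214 at 2 h (-2.25 ± 0.10, adjusted p = 1.97e-11). At 0.5 h it had been slightly higher (0.41 ± 0.10, adjusted p = 0.0021), which was lost without replicate 2 and became -0.10 at equal totals.

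The ATG8 genes were among those that fell. Gabarapl1 went from 58, 60 and 68 to 7, 13 and 11 at 2 h and 5, 8 and 8 at 4 h (-3.00 ± 0.27, adjusted p = 1.19e-07), with no overlap. Map1lc3b, which encodes LC3B, had low values of 39, 41 and 35 untreated and 17, 15 and 17 at 4 h of LPS. The call on its log2 fold change of -1.18 ± 0.33, adjusted p = 0.0054 was lost without replicate 3 (adjusted p = 0.0586). Its F test call over the LPS course was lost with median-of-ratios factors and with no filter on low values. That call was also lost with replicates 2 and 3 averaged and without replicate 2 or 3. Map1lc3b shares 58 bases with Zcchc14 on the other strand, whose mean was 155% of its own. Wipi1, a phosphoinositide-binding protein of early autophagosomes, went from 49, 57 and 39 to 6, 6 and 8 at 4 h (-2.68 ± 0.33, adjusted p = 3.60e-06), and the non-coding Gm39442 on its other strand had a mean equal to 53.3% of that of Wipi1. Atg5 fell by 1.31 at 2 h on the log2 scale.

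The 2 exceptions were Becn1 and Atg16l1. Becn1, which encodes Beclin-1, stood at 83, 97 and 71 untreated and 158, 129 and 137 at 1 h (0.76 ± 0.16, adjusted p = 7.07e-04), a rise that was lost at equal totals, where the 2 h and 4 h values turned to -0.01 and -0.13. Atg16l1, part of the complex that directs lipidation, first fell and then rose. It went from 171, 169 and 156 to 65, 74 and 111 at 0.5 h (-1.02 ± 0.16, adjusted p = 7.17e-05) and reached 346, 317 and 352 at 4 h (1.03 ± 0.16, adjusted p = 3.83e-05). Groups did not overlap at either time.

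The glycosidases, lipases and precursors were mostly lower from 1 h, and Lipa already from 0.5 h. Of the 9 glycosidases, lipases and precursors, 8 had a lower value as their largest change (background 54.7%) and 1 a higher one (background 32.9%). At 0.5 h 1 was higher (background 19.6%) and 2 were lower (background 34.4%), and at 1 h 8 were lower (background 39.0%). None was higher at 1 h by limma at an adjusted or unadjusted p under 0.05, as the remaining member, Grn, stood at -0.24 ± 0.25. Lipa, the acid lipase that frees cholesterol from its esters, fell most, from 1542, 1168 and 1114 untreated to 314, 313 and 309 at 0.5 h and 189, 287 and 231 at 4 h. The highest LPS sample of Lipa was well under the lowest untreated one, and the log2 fold change was -2.01 ± 0.16, adjusted p = 8.98e-08 at 0.5 h and -2.44 ± 0.16, adjusted p = 3.50e-09 at 4 h. Hexa, a subunit of beta-hexosaminidase, went from 435, 370 and 323 to 69, 96 and 76 at 2 h (-2.22 ± 0.20, adjusted p = 1.38e-07). Neu1, a sialidase, went from 89, 73 and 88 to 18, 16 and 12 at 2 h (-2.38 ± 0.24, adjusted p = 3.52e-07), and Gaa, acid alpha-glucosidase, fell by 1.82 at 2 h. Glb1 and Gusb, beta-galactosidase and beta-glucuronidase, fell by 1.50 and by 1.45, both at 1 h. Glb1 shares 10107 bases with Tmppe on the same strand, which had a mean of 29.8% of that of Glb1.

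Grn, Gla and Psap departed from this pattern. Grn rose late, from 913, 1116 and 1236 untreated to 1876, 3511 and 2858 at 4 h (1.30 ± 0.25, adjusted p = 3.22e-04), with replicate 1 the lowest of its group both times. Gla, alpha-galactosidase A, was higher at 0.5 h (92, 75 and 89 against 28, 29 and 41), lower at 1 h (18, 9 and 9) and higher again at 4 h (71, 80 and 94). Its log2 fold changes were 1.37 ± 0.28, adjusted p = 7.30e-04 at 0.5 h, -1.42 ± 0.28, adjusted p = 4.17e-04 at 1 h and 1.31 ± 0.28, adjusted p = 7.94e-04 at 4 h. Psap was lower at 1 h (-1.02 ± 0.21, adjusted p = 5.69e-04) and back among the untreated values at 4 h (1720, 1961 and 1618 against 2725, 1975 and 1932).

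The proteases divided. Ctsc, which encodes the activator of serine proteases of immune cells, rose in 2 waves, from 1400, 1535 and 1773 untreated to 6739, 8423 and 8460 at 0.5 h, 3469, 4337 and 4501 at 1 h and then 9285, 11472 and 14620 at 4 h. All LPS samples lay above all untreated samples, with log2 fold changes of 2.33 ± 0.19, adjusted p = 7.31e-08 at 0.5 h, 1.38 ± 0.19 at 1 h and 2.89 ± 0.19, adjusted p = 2.08e-09 at 4 h. Ctsz, a carboxypeptidase, had a course of like shape, from 275, 179 and 179 to 1194, 1091 and 949 at 0.5 h, 459, 425 and 471 at 2 h and then 944, 904 and 878 at 4 h. Its log2 fold change was 2.37 ± 0.15, adjusted p = 3.69e-09 at 0.5 h, 1.12 ± 0.15 at 2 h and 2.13 ± 0.15, adjusted p = 4.53e-09 at 4 h. Ctss, the protease that processes the invariant chain for antigen presentation, went down and then up: 356, 456 and 458 untreated, 128, 174 and 169 at 0.5 h, 640, 784 and 677 at 2 h and then 805, 928 and 848 at 4 h. Its early fall (-1.43 ± 0.15, adjusted p = 1.58e-06) and late rise (1.03 ± 0.15, adjusted p = 2.47e-05) were both without overlap.

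Of the other 6 proteases, 5 had a fall as their largest change (background 54.7%). Ctsl, cathepsin L, went from 79, 124 and 111 untreated to 15, 32 and 26 at 4 h (-2.10 ± 0.25, adjusted p = 3.08e-06). Lgmn, the asparaginyl endopeptidase legumain, fell from 1206, 793 and 909 to 334, 242 and 183 at 1 h (-1.95 ± 0.19, adjusted p = 3.49e-07). Ctsd, the main aspartic protease, overlapped its untreated values at 0.5 h (939, 1122 and 977 against 970, 966 and 989) and fell to 307, 668 and 348 at 4 h (-1.23 ± 0.25, adjusted p = 5.11e-04), where replicate 2 was the highest. Ctsh rose at 0.5 h (0.67 ± 0.15, adjusted p = 0.00144), a call lost without replicate 2 and at equal totals, and fell at 2 h (-1.41 ± 0.15, adjusted p = 6.26e-07). Ctsa fell by 1.18 at 2 h, and the reads it could share with Pltp on the other strand are many, since the mean of Pltp was 59.5% of that of Ctsa. Ctsb, cathepsin B, moved least, between -0.31 at 2 h and 0.35 at 4 h, and its only call at a single time, the rise at 4 h (adjusted p = 0.0433), was lost without replicate 2 or 3 and turned to -0.26 at equal totals.

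Several V-ATPase subunits rose at 0.5 h of LPS and fell afterwards. At 0.5 h 4 of 7 were higher (background 19.6%) and 1 was lower (background 34.4%). At 2 h 5 were lower (background 39.0%) and none was higher (background 26.9%, by limma adjusted p below 0.05). None was higher at 2 h at an unadjusted p under 0.05 either. With median-of-ratios factors these counts were 5 and 1 at 0.5 h, and 4 lower with 1 higher at 2 h, so that over the course 5 subunits had a rise as their largest change, where the deposited scaling gave 1. At equal totals 3 were higher and 2 lower at 0.5 h, and all 7 were lower at 2 h. Of 11 other subunits, from a wider list described below, 3 were higher and 2 lower at 0.5 h by the deposited scaling. At 2 h 3 of these 11 were higher and 4 lower. Atp6v0a1, a membrane subunit, went from 1489, 1154 and 1181 untreated to 3249, 3350 and 3082 at 0.5 h and 457, 494 and 416 at 4 h. The log2 fold change was 1.35 ± 0.17, adjusted p = 9.19e-06 at 0.5 h and -1.48 ± 0.17, adjusted p = 1.79e-06 at 4 h. Atp6v1a, the catalytic subunit, followed with 795, 707 and 746, 2038, 1780 and 1580 and 253, 315 and 306 at the same times (1.26 ± 0.12, adjusted p = 5.36e-07 at 0.5 h and -1.36 ± 0.12, adjusted p = 8.55e-08 at 4 h). Atp6v0d1 rose at 0.5 h (0.98 ± 0.19, adjusted p = 4.24e-04) and fell at 2 h (-1.12 ± 0.19, adjusted p = 7.73e-05). Atp6v1h, a regulatory subunit, rose at 1 h (0.51 ± 0.13, adjusted p = 0.0029) by the deposited scaling, but stood at -0.072 there at equal totals.

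Atp6v1b2 ran the other way. It went from 386, 330 and 337 untreated to 135, 178 and 106 at 0.5 h and then up to 662, 697 and 711 at 4 h. The early fall (-1.35 ± 0.16, adjusted p = 4.51e-06) and the late rise (0.98 ± 0.16, adjusted p = 6.54e-05) were both without overlap, and the rise was lost at equal totals. Atp6v1c1 fell by 1.46 at 2 h. Atp6v0d2, an isoform found in osteoclasts and some macrophages, was the only member that missed the LPS F test by the deposited scaling (adjusted p = 0.0608, and 6.98e-05 with the replicate block), with values of 50, 19 and 17 untreated and 12, 2 and 1 at 4 h, in which replicate 1 was the highest each time. Its single-time calls at 2 h and 4 h were lost without replicate 2 or 3.

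**Figure D4:**
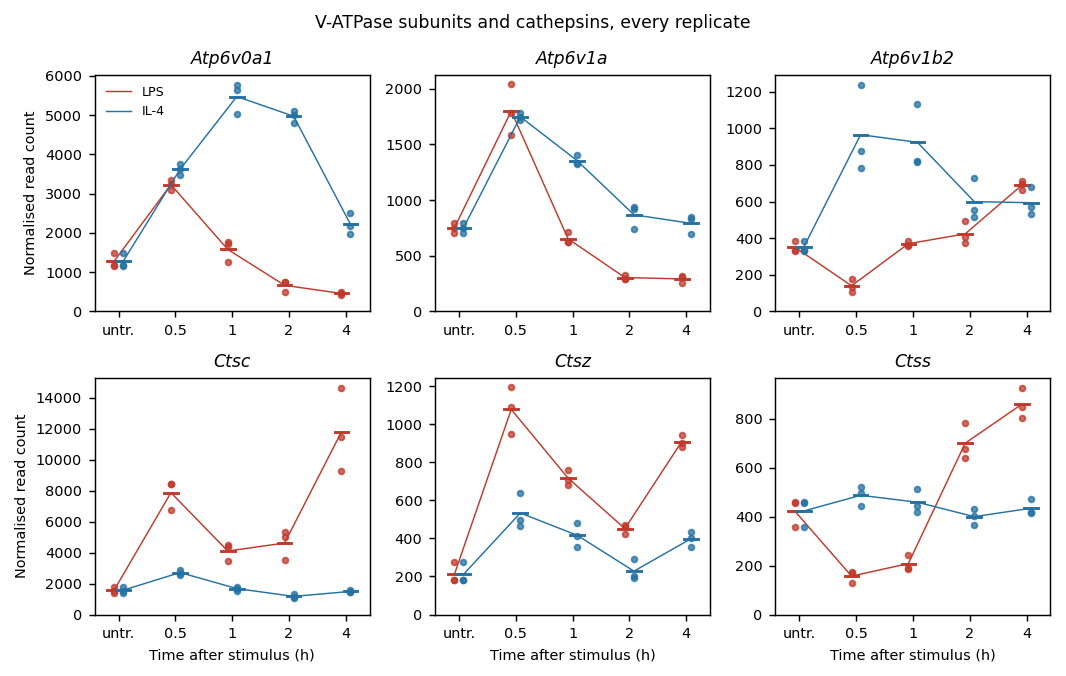
Normalised read counts (linear axis from 0) of 3 V-ATPase subunits and 3 cathepsins in every replicate (points) of the untreated, LPS (red) and IL-4 (blue) groups, with group means as bars joined by lines. Atp6v0a1 and Atp6v1a start together under both stimuli and part by 1 h, Atp6v1b2 moves in opposite directions at 0.5 h (106 to 178 after LPS, 781 to 1237 after IL-4), and the LPS rise of Ctsc reaches 9285 to 14620 at 4 h.

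At the lysosomal membrane the members went separate ways. Npc2, the soluble protein that hands cholesterol to NPC1, rose from 123, 107 and 146 untreated to 390, 306 and 242 at 1 h and 715, 665 and 594 at 4 h (2.39 ± 0.16, adjusted p = 3.55e-09). Npc1, its membrane partner, fell from 474, 450 and 434 to 180, 174 and 185 at 0.5 h and 136, 131 and 110 at 2 h (-1.85 ± 0.14, adjusted p = 1.33e-08). Neither gene overlapped its untreated samples at 2 h. Mcoln1, the calcium channel TRPML1, fell from 165, 178 and 171 to 31, 33 and 31 at 2 h (-2.40 ± 0.16, adjusted p = 3.70e-09). Lamp2 fell at 1 h (793, 900 and 840 against 1419, 1359 and 1609, -0.79 ± 0.16, adjusted p = 5.94e-04) and rose to 3854, 5036 and 5863 at 4 h (1.73 ± 0.16, adjusted p = 1.70e-07). It shares 13570 bases with a non-coding gene on the same strand whose mean was 25.2% of its own. By the deposited scaling Lamp1 was lower at 2 h and was called at no other time (169, 188 and 171 against 313, 270 and 267, -0.68 ± 0.15, adjusted p = 9.67e-04), and at equal totals it was lower at every time, from -0.51 at 1 h to -1.34 at 2 h.

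Set beside the promoter sites, the 11 members with TCACGTG all had a fall as their largest change after LPS, with a median of -1.42, although Atp6v0d1, Atp6v1a, Gla and Atg7 had first risen at 0.5 h. With median-of-ratios factors the rises of Atp6v0d1 (1.22), Atp6v1a (1.50) and Gla (1.61) became the larger changes, which left 8 of the 11 with a fall. The rise of Gla was also the larger change with a pseudocount of 8, on averaging replicates 2 and 3 and without replicate 2 or replicate 3, and that of Atp6v0d1 without replicate 3. Of the 23 members with a window and no core, 10 had a rise and 13 a fall as their largest change, with a median of -1.18. This split was noted after the values were seen and has no test. Of the 14 other lysosome and autophagy genes with the motif, 3 rose and 10 fell, beside 16 and 42 of the 62 without the core. Over all tested genes, 57.0% of the 714 with the motif fell and 56.2% of the 9579 without the core did. The shares of these that rose were 31.5% and 32.0%. After IL-4, 1 of the 11 members rose and 4 fell, beside 20.3% and 21.0% of the 714 tested genes with the motif. Of the 23 members without the core, 4 rose and 7 fell, beside 19.5% and 21.4% of the 9579 tested genes without it.

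IL-4 acted on fewer members and by smaller amounts. Over its course 22 of 45 passed the F test against 40.3% of all tested genes, 8 higher (background 19.4%) and 14 lower (background 20.9%) at their largest change. The count depended on the replicates, and so did the background. It was 34 with a replicate block (samples with the same replicate number deviated together, background 53.3%), 34 with sample weights (background 51.5%) and 29 without replicate 1 (background 47.1%). It was 15 without replicate 2 (7 higher and 8 lower, background 16.1%) and 14 without replicate 3 (7 and 7, background 15.6%). Lamp2, Npc1, Ctsc, Ctsh, Ctsz, Atp6v0a1, Atp6v1a, Atp6v1b2, Gla, Ulk2, Atg7 and Atg16l1 (12 of the 22) passed with any 1 replicate left out and with replicates 2 and 3 averaged. At 0.5 h 13 members passed (background 16.3%), 7 higher (background 8.15%) and 6 lower (background 8.14%). At 1 h 14 passed (background 21.0%), 6 higher (background 11.1%) and 8 lower (background 9.83%). At 2 h 20 passed (background 27.6%), 4 higher (background 14.3%) and 16 lower (background 13.2%), and at 4 h 15 passed (background 25.9%), 7 higher (background 13.4%) and 8 lower (background 12.5%). Without replicate 2 these counts were 9, 9, 10 and 4 (background 5.56%, 9.39%, 13.6% and 11.9%). Without replicate 3 they were 9, 7, 11 and 4 (background 6.32%, 9.48%, 13.4% and 11.4%). The median member changed by 0.05, -0.09, -0.35 and 0.0028 (log2) at the 4 times, beside -0.023, -0.012, -0.0015 and 0.017 for the median of all tested genes. With other scalings the split was 7 and 10 at 0.5 h (equal totals) and 5 and 10 at 4 h (median-of-ratios factors). The shares of all tested genes called there in either direction were 21.3% and 25.7%.

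Of the 7 V-ATPase members, 3 rose (background 19.4%) and 1 fell (background 20.9%) over the IL-4 course. Of 11 other subunits, part of a wider list read for comparison, 1 was higher and 1 lower, with a median largest change of -0.058. Atp6v0a1 went from 1489, 1154 and 1181 untreated to 3744, 3635 and 3469 after 0.5 h, then 5631, 5765 and 5021 after 1 h, then 5097, 4802 and 5012 after 2 h and last 2511, 1962 and 2179 after 4 h. Every IL-4 sample exceeded every untreated one, and the log2 fold change was 2.11 ± 0.11, adjusted p = 1.31e-08 at 1 h and 0.80 ± 0.11, adjusted p = 8.89e-05 at 4 h. Atp6v1b2, the non-catalytic B subunit, rose to 1237, 877 and 781 at 0.5 h from 386, 330 and 337 (1.43 ± 0.18, adjusted p = 8.66e-05). Atp6v1a rose to 1742, 1781 and 1720 at 0.5 h from 795, 707 and 746 (1.22 ± 0.10, adjusted p = 1.25e-06) and was back at 832, 692 and 848 at 4 h. Atp6v1c1 was the V-ATPase member that fell (-0.52 ± 0.09, adjusted p = 5.24e-04 at 2 h). Atp6v0d2 reached 280, 65 and 84 at 4 h against 50, 19 and 17 untreated (2.14 ± 0.80, adjusted p = 0.0668), a difference in which replicate 1 was over 3 times the others and which missed the threshold. Within each replicate number the 4 h value was the higher, and with the replicate block the adjusted p was 7.68e-06.

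Outside the pump, 5 members rose over the IL-4 course. Atg16l1 went from 171, 169 and 156 to 350, 409 and 428 at 2 h (1.25 ± 0.10, adjusted p = 6.45e-07), without overlap. Ctsz went from 275, 179 and 179 to 637, 466 and 498 at 0.5 h (1.35 ± 0.20, adjusted p = 2.81e-04). Npc1 rose to 848, 848 and 742 at 1 h from 474, 450 and 434 (0.84 ± 0.08, adjusted p = 3.67e-06) and stood at 461, 424 and 400 at 2 h. Ctsc rose at 0.5 h (2558, 2689 and 2893 against 1400, 1535 and 1773, 0.79 ± 0.10, adjusted p = 1.02e-04) and was lower at 2 h (-0.42 ± 0.10, adjusted p = 0.00752), a call lost without replicate 2 and with replicates 2 and 3 averaged. Tax1bp1 rose at 2 h (423, 618 and 589 against 333, 316 and 320, 0.73 ± 0.16, adjusted p = 0.00404), a call lost without replicate 2 or 3.

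Falls after IL-4 were found in most roles. Tfeb dropped early, to 226, 131 and 122 at 0.5 h from 366, 359 and 294 (-1.13 ± 0.23, adjusted p = 0.00306), and was at 440, 347 and 389 at 4 h, overlapping the untreated values (0.21 ± 0.23, adjusted p = 0.567). The early call was lost without replicate 2 (adjusted p = 0.158) or replicate 3 (adjusted p = 0.0729). Ctsh went from 489, 400 and 407 to 227, 199 and 171 at 1 h (-1.12 ± 0.13, adjusted p = 3.51e-05), and Ctsd from 970, 966 and 989 to 545, 475 and 347 at 2 h (-1.12 ± 0.24, adjusted p = 0.0029). Lamp2 fell to 832, 914 and 903 at 2 h (-0.72 ± 0.08, adjusted p = 1.43e-05). The low-valued Gla fell from 28, 29 and 41 to 13, 12 and 10 at 2 h (-1.40 ± 0.21, adjusted p = 1.96e-04).

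Autophagy genes that fell after IL-4 included both ULK kinases. Ulk1 was lowest at 0.5 h (116, 82 and 108 against 174, 189 and 206, -0.90 ± 0.13, adjusted p = 3.26e-04). Ulk2 stayed down through 4 h (285, 299 and 253 against 578, 477 and 451, -0.84 ± 0.11, adjusted p = 9.12e-05). Sqstm1 fell to 88, 68 and 65 at 2 h from 128, 126 and 149 (-0.87 ± 0.17, adjusted p = 0.00147), a call lost without replicate 2. Lipa fell to 835, 620 and 553 at 2 h (-0.94 ± 0.22, adjusted p = 0.00547), also lost without replicate 2 or 3, and Atg7 fell by 0.66 at the same time. Mcoln1, Ctsl and Gabarapl1 make up the rest of the 14 that fell, with largest log2 fold changes of -0.45, -0.95 and -0.54. The single-time calls of Mcoln1 (2 h) and Ctsl (4 h) were lost without replicate 2 or 3. That of Gabarapl1 (4 h) was lost with any 1 replicate left out.

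Other members had no call over the IL-4 course. Mitf was at 9865, 6989 and 7290 at 1 h against 6672, 4509 and 4717 (0.61 ± 0.24, adjusted p = 0.0929, and adjusted p = 3.30e-06 with the replicate block), and Tfe3 was at 132, 133 and 165 at 0.5 h (-0.49 ± 0.16, adjusted p = 0.0533, and adjusted p = 0.0333 with the block). Lamp1 was at 383, 338 and 345 at 4 h (0.33 ± 0.15, adjusted p = 0.139, and adjusted p = 0.0136 with the block). Map1lc3b stayed within 36, 39 and 41 at 4 h and 34, 38 and 31 at 2 h, overlapping the untreated samples at every time. Its 4 log2 fold changes lay between -0.18 and 0.01.

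LPS and IL-4 were then compared directly at each time. All 45 members differed over the 4 times (background 88.1%), 15 with LPS higher (background 32.3%) and 30 with LPS lower (background 55.8%) at the largest difference. At 0.5 h 26 differed (background 53.8%), 15 higher with LPS (background 18.0%) and 11 lower (background 35.8%). At 1 h 38 differed (background 64.5%), 11 higher (background 24.0%) and 27 lower (background 40.5%). At 2 h 42 differed (background 68.6%), 12 higher (background 26.4%) and 30 lower (background 42.3%), and at 4 h 40 differed (background 68.0%), 13 higher (background 26.1%) and 27 lower (background 41.9%). At equal totals 10 of the 43 members that differed over the 4 times were higher with LPS (91.6% of all tested genes differed in either direction). With median-of-ratios factors the higher and lower counts were 19 and 7 at 0.5 h, then 15 and 20 (1 h) and 16 and 20 (4 h). The share of all tested genes that differed was 53.4%, 64.5% and 66.0% at these times. At equal totals the counts were 8 and 22 at 0.5 h, beside 62.7% of all tested genes. Without replicate 2 the count at 0.5 h was 16 (background 40.7%).

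Wide gaps were found in the receptors, in Tfeb and in the proton pump. Sqstm1 was higher with LPS by 4.70 ± 0.21 (log2, adjusted p = 7.58e-15) at 0.5 h, where the LPS samples held 2994, 2460 and 2078 and the IL-4 samples 109, 82 and 94. Optn was higher with LPS by 3.94 ± 0.30, adjusted p = 3.23e-11 at 2 h. Tfeb did not differ detectably at 0.5 h (-0.15 ± 0.28, adjusted p = 0.698), when both groups were below untreated, and differed by -4.03 ± 0.28, adjusted p = 8.27e-12 at 2 h. In the pump all 7 subunits were lower with LPS than with IL-4 at 2 h (background 42.3%). Of these, 5 passed with median-of-ratios factors, where 67.6% of all tested genes differed in either direction. The 11 other subunits of the wider list went both ways, with 3 higher and 5 lower at 2 h and, over the 4 times, 6 higher and 3 lower. Atp6v0a1 did not differ detectably at 0.5 h (-0.16 ± 0.15, adjusted p = 0.362) and was lower with LPS by 2 h (-2.93 ± 0.15, adjusted p = 1.40e-14). Atp6v1a likewise stood at 0.03 ± 0.11, adjusted p = 0.827 at 0.5 h, where equal totals gave -0.35, and at -1.51 ± 0.11, adjusted p = 2.34e-11 at 2 h. Atp6v0d2 gave the largest single difference of the pump at 4 h (-4.77 ± 0.87, adjusted p = 3.91e-05), from 12, 2 and 1 after LPS and 280, 65 and 84 after IL-4.

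Members that the stimuli moved in opposite directions included both cholesterol and lipidation genes. Npc1 was lower with LPS than with IL-4 at every time, by -2.02 ± 0.12, adjusted p = 6.41e-13 at 0.5 h and -1.67 ± 0.12, adjusted p = 5.77e-12 at 4 h. Atg16l1 was lower with LPS at 0.5 h (-2.00 ± 0.14, adjusted p = 1.85e-11) and higher with LPS at 4 h (0.56 ± 0.14, adjusted p = 0.00104), the latter at -0.07 with equal totals. Lamp2 was higher with LPS at 4 h (2.22 ± 0.13, adjusted p = 5.67e-13). The proteases with the largest gaps were Ctsc at 4 h (2.96 ± 0.16, adjusted p = 5.29e-14) and Lgmn at 1 h (-1.96 ± 0.20, adjusted p = 8.87e-09). The members whose largest difference was smallest were Atp6v1h (-0.50 ± 0.12, adjusted p = 6.31e-04 at 4 h), Becn1 (0.62 ± 0.14, adjusted p = 4.20e-04 at 1 h) and Lamp1 (-0.64 ± 0.16, adjusted p = 0.001 at 2 h). Those of Atp6v1h and Lamp1 were lost with median-of-ratios factors and that of Becn1 at equal totals. By the deposited scaling Psap passed only at 4 h (-0.68 ± 0.30, adjusted p = 0.048), a call lost without replicate 2 or 3.

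**Figure D5:**
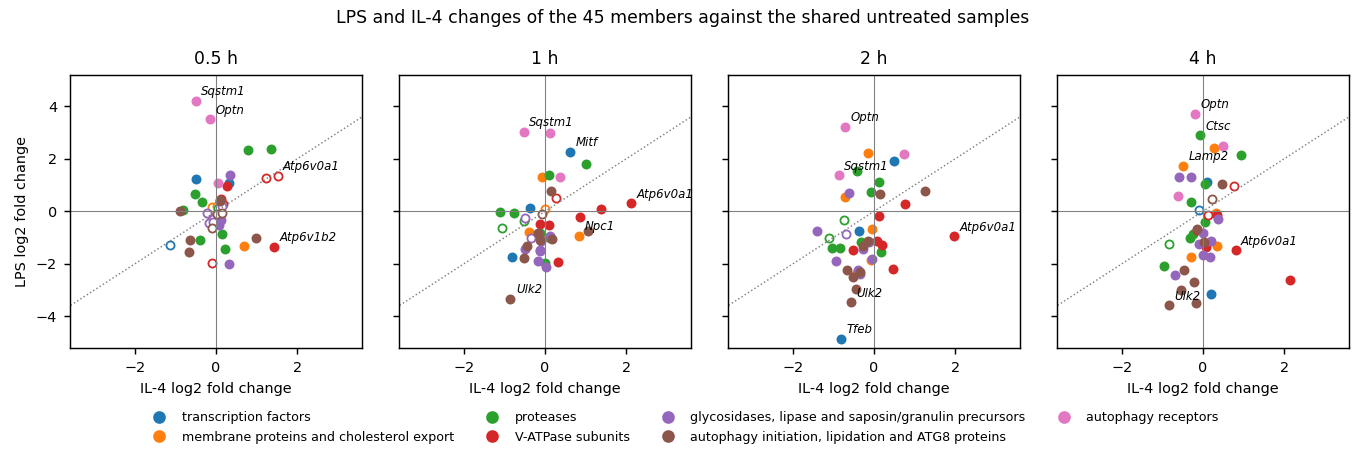
Log2 fold change after LPS (y axis) against that after IL-4 (x axis) of the 45 members at each time, coloured by role, filled where LPS and IL-4 differed in the direct test (limma adjusted p below 0.05), with the dotted line marking equal change. Both axes use the same 3 untreated samples, so only the distance from the dotted line is tested; Sqstm1 and Optn lie far above it and Atp6v0a1 moves below it after 0.5 h.

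A wider list of 101 other lysosome and autophagy genes, of which 100 were in the table and 96 were tested, was read for comparison. Over the LPS course 87 of 96 changed (background 87.6%), 23 higher (background 32.9%) and 64 lower (background 54.7%), and over the IL-4 course 41 of 96 (background 40.3%), 13 higher (background 19.4%) and 28 lower (background 20.9%). Their median log2 change after LPS was -0.41, -0.81, -1.03 and -0.54 at the 4 times, beside 0.00, -0.74, -1.12 and -0.70 in the members. Over the LPS course, against the same backgrounds of 32.9% higher and 54.7% lower, other lysosomal hydrolases and activators were lower in 22 of 28 and higher in 3, other autophagy genes lower in 23 of 32 and higher in 7, and other lysosomal membrane proteins and mTORC1 sensors lower in 17 of 25 and higher in 7. Of the other V-ATPase subunits, 6 of 11 were higher and 2 lower. As with the members, the choice of these genes was made with earlier results known, and their shares are a description.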

How the data were processed

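Chromatin-associated RNA was measured in 27 samples by the authors, with libraries made by a Smart-seq2 procedure. Per the study's methods and the submitters' processing notes, single-end reads were aligned to mm10 with TopHat2 2.1.1, reads with multiple hits or in blacklisted regions were removed with bedtools 2.29.2, reads on each gene of the GRCm38.p6 annotation were summed in R, and libraries were scaled on invariant genes. The score values the authors deposited are the scaled counts, as whole numbers. Since they are no longer raw counts, no count model was run and no count interval is given. The deposited columns of gene width and cDNA length (other values, in bases) were used for levels per kilobase.

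Samples were grouped by their labels. Values were analysed as log2(value + 1), which understates the change of low genes, with limma 3.58.1 in R 4.3.3 (mean-variance trend, Benjamini-Hochberg adjustment over the 13901 tested genes, threshold 0.05). Each stimulus was fitted with its 12 samples and the 3 untreated ones, with an F test over the 4 times and a contrast per time. LPS and IL-4 were compared in 1 fit of all 27 samples. The study's impulse model was not run. The untreated samples enter both courses, so the LPS and IL-4 values share them.

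The members and lists were chosen with earlier results of these data known. Per role and stimulus, the largest rise and the largest fall among members that passed the F test and had a mean of at least 50 in the higher group are given in full, with Tfeb, Tfe3, Mitf, Lamp1, Map1lc3b and Sqstm1 in any case and members that ran against most of their role. The labels do not say that replicates came from separate cultures or animals, so p-values measure the spread between these samples, which may be technical. Replicate numbers are shared between groups. Correlations of same-numbered deviations from the group means were 0.21 to 0.68 between IL-4 and untreated samples and 0.19 to 0.63 between LPS and IL-4 samples, which was taken as pairing. The main fits nevertheless used group means with no replicate term, so their counts and p-values ignore this pairing. Only the replicate block, given as an alternative, takes it into account. Between LPS and untreated samples they were 0.09 to 0.60, with 11 of 12 over 0.1. The LPS course was not taken as paired, a choice that does not show these samples to be unpaired. Alternatives were another scaling (median-of-ratios factors or equal totals), other filters, a pseudocount of 8, the replicate block, sample weights, averaging replicates 2 and 3, and leaving out each replicate. Promoters came from RefSeq (GRCm38.p6, the build of the deposited coordinates).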

Additional observations from a re-analysis of the deposited data

Results flagged for a closer look

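With 3 replicates a group, no sample was tested for standing apart. Members were picked out where the same gene was called in opposite directions at 2 times of a course, or by LPS and IL-4 at the same time, and the difference itself passed 0.05 (limma). These members were selected for that pattern from many comparisons. How many of all tested genes met the same rule was not counted, so the counts below have no background.

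Within the LPS course 11 members turned. Differences are the later minus the earlier time on the log2 scale. From a rise to a fall, 2 h minus 0.5 h was -1.96 for Tfe3, -2.08 for Ctsh, -2.10 for Atp6v0d1 and -2.66 for Atg7, 4 h minus 0.5 h was -2.82 for Atp6v0a1 and -2.62 for Atp6v1a, and 1 h minus 0.5 h was -2.80 for Gla. From a fall to a rise, 4 h minus 0.5 h was 2.46 for Ctss, 2.33 for Atp6v1b2 and 2.04 for Atg16l1, and 4 h minus 1 h was 2.52 for Lamp2. Within the IL-4 course 1 member turned: Ctsc, by -1.21 from 0.5 h to 2 h. Its fall at 2 h was lost without replicate 2. In the LPS course the 0.5 h rises of Ctsh and Atg7 were lost without replicate 2. At equal totals that of Ctsh was lost, that of Atg7 stood at -0.10, and the 4 h rise of Atp6v1b2 was lost.

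Between the stimuli, 9 members were called in opposite directions at the same time. The LPS minus IL-4 difference was positive for Lamp2 (1.27 at 2 h and 2.22 at 4 h), Ctsc (1.96 at 2 h), Ctsh (1.19 at 0.5 h), Grn (1.34 at 2 h) and Sqstm1 (3.56 at 1 h, 2.24 at 2 h and 1.18 at 4 h). It was negative for Npc1 (-2.02 at 0.5 h, -1.77 at 1 h and -1.67 at 4 h), Atp6v0a1 (-2.93 at 2 h and -2.28 at 4 h), Atp6v1b2 (-2.78 at 0.5 h) and Atg16l1 (-2.00 at 0.5 h and -1.80 at 1 h). Several single calls behind these pairs were not stable. Without replicate 2 or 3 both calls of Grn and those of Lamp2 (LPS, 2 h), Ctsh (IL-4) and Npc1 (IL-4, 4 h) were lost. So were the Sqstm1 calls after IL-4 at 1 h and 4 h. Without replicate 2 those of Ctsc (IL-4), Ctsh (LPS) and Sqstm1 (IL-4 at 2 h, LPS at 4 h) were lost too. At equal totals Lamp2 stood at -0.12 (LPS, 2 h) and Sqstm1 at -0.03 (LPS, 4 h).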

How the results depend on the processing

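With a replicate block, 34 members passed over the IL-4 course (background 53.3%) in place of 22, and 34 with sample weights (background 51.5%). The replicate block moved no other count of members past the ratio of 3 to 2 and gave 45 of 45 for the LPS course. With replicates 2 and 3 averaged, 9 passed at IL-4 1 h (background 10.4%), 10 at 2 h (background 15.3%) and 4 at 4 h (background 13.2%) in place of 14, 20 and 15. Leaving out 1 replicate at a time gave 42 to 45 over the LPS course and 20 to 30, 29 to 37, 37 to 43 and 35 to 39 at its 4 times, 14 to 29 over the IL-4 course and 9 to 15, 7 to 18, 10 to 27 and 4 to 16 at its times, and 43 to 45 for LPS against IL-4 and 16 to 28, 30 to 39, 36 to 38 and 37 to 39 at its times. Over the same fits the background was 72.3% to 90.0% for the LPS course and 15.6% to 47.1% for the IL-4 course. For LPS against IL-4 it was 78.1% to 90.3%. In 2-replicate fits the spread is estimated from all groups. Of 350 repeats of the 32 named member values, 327 kept direction and side of the threshold, 11 lost and 11 gained the call, and 1 changed sign (Atp6v1h at LPS 1 h, -0.072 at equal totals). The cause of these changes was not tested. The limits are 3 replicates a group, of which replicate 1 differs from the others, an unstated use of strand and introns in counting, and unknown read depth. Low values for Wipi1, Map1lc3b, Gabarapl1, Gla, Optn and Atp6v0d2 are a further limit.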
